A study of Mus musculus with 22 samples.

Results

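The glycolysis and hypoxia response genes comprised 37 mouse genes chosen by name for their known roles, of 20018 genes that could be named on the array. The choice was made with earlier results of these data known, so that the shares set beside those of all genes below are descriptive. The 37 genes fall into 6 roles: 4 carriers of glucose and lactate, 10 hexokinases and enzymes of upper glycolysis, 8 enzymes of lower glycolysis including lactate dehydrogenase, 3 regulators of glycolytic flux, 4 hypoxia-inducible factors and prolyl hydroxylases, and 8 genes known to respond to hypoxia. All 37 were measured and expressed, and where a gene had several probes (14 of the 37) the brightest was used. Right lungs were taken from female C57BL/6 mice 24 h after a single intratracheal instillation of multiwalled carbon nanotubes (MWCNT) of the type Mitsui7, which are long rigid carbon fibres. Control mice (n = 5) received the vehicle alone, 0.9% NaCl with 10% acellular bronchoalveolar lavage fluid from mice. The treated mice received 18 µg (n = 6), 54 µg (n = 5) or 162 µg (n = 6) in that vehicle, so that all groups shared the instillation, the lavage fluid, the strain, the sex and an age of 8 weeks. Whole lung RNA was hybridised in the red channel of a 2-colour array against a common mouse reference RNA in the green channel, and each value below is a normalised log2 ratio of lung to reference. Such a ratio can be compared between mice but not between genes.

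Glycolysis splits glucose into pyruvate in the cytosol, and lactate dehydrogenase turns pyruvate and lactate into each other. When oxygen is short, prolyl hydroxylases no longer mark the hypoxia-inducible factors for destruction, and these factors then raise the transcription of glucose carriers, glycolytic enzymes and genes such as Vegfa, Adm and Bnip3. In lung tissue, the same genes are also known to respond to cytokines and to the activation of macrophages and of neutrophils, the latter of which rely on glycolysis.

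At 162 µg, 6 of the 37 genes differed from control by the rule used throughout, which asked for a Benjamini-Hochberg adjusted p of at most 0.05 over all probes from limma, a change of at least 1.5-fold and expression above background. Adm, which encodes a vasodilator peptide, Ddit4, an inhibitor of the kinase mTORC1, Pfkfb3, which makes the activator of phosphofructokinase, and Pgk1, a glycolytic kinase, rose 1.57- to 2.95-fold. Ldhb, the heart-type subunit of lactate dehydrogenase, and P4ha1, a subunit of the collagen prolyl 4-hydroxylase, fell 1.99- and 2.72-fold. The members passing the rule were 16.2% of the 37, beside 6.84% of the 16436 expressed named genes. By direction, 4 of 37 were higher, beside 3.32% of all genes, and 2 of 37 were lower, beside 3.52%.

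The lower doses gave few calls among these genes. At 18 µg, 1 of 37 members passed (2.7%, beside 2.06% of all genes), which was Ldhb. This left 0 higher, beside 0.633% of all genes, and 1 lower, beside 1.43%. At 54 µg, limma called 0 of 37 members (6 had an unadjusted p under 0.05), beside 0.353% of all genes, 0.219% higher and 0.134% lower. Adm (5 mice) and Hif1a (3 mice measured) lay above all controls in every measured mouse, beside 1.51% of all genes. Ldhb lay below all controls in all 5 mice, beside 1.8%. The 3 dose comparisons share the same 5 control mice and are given side by side for that reason.

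**Figure D1:**
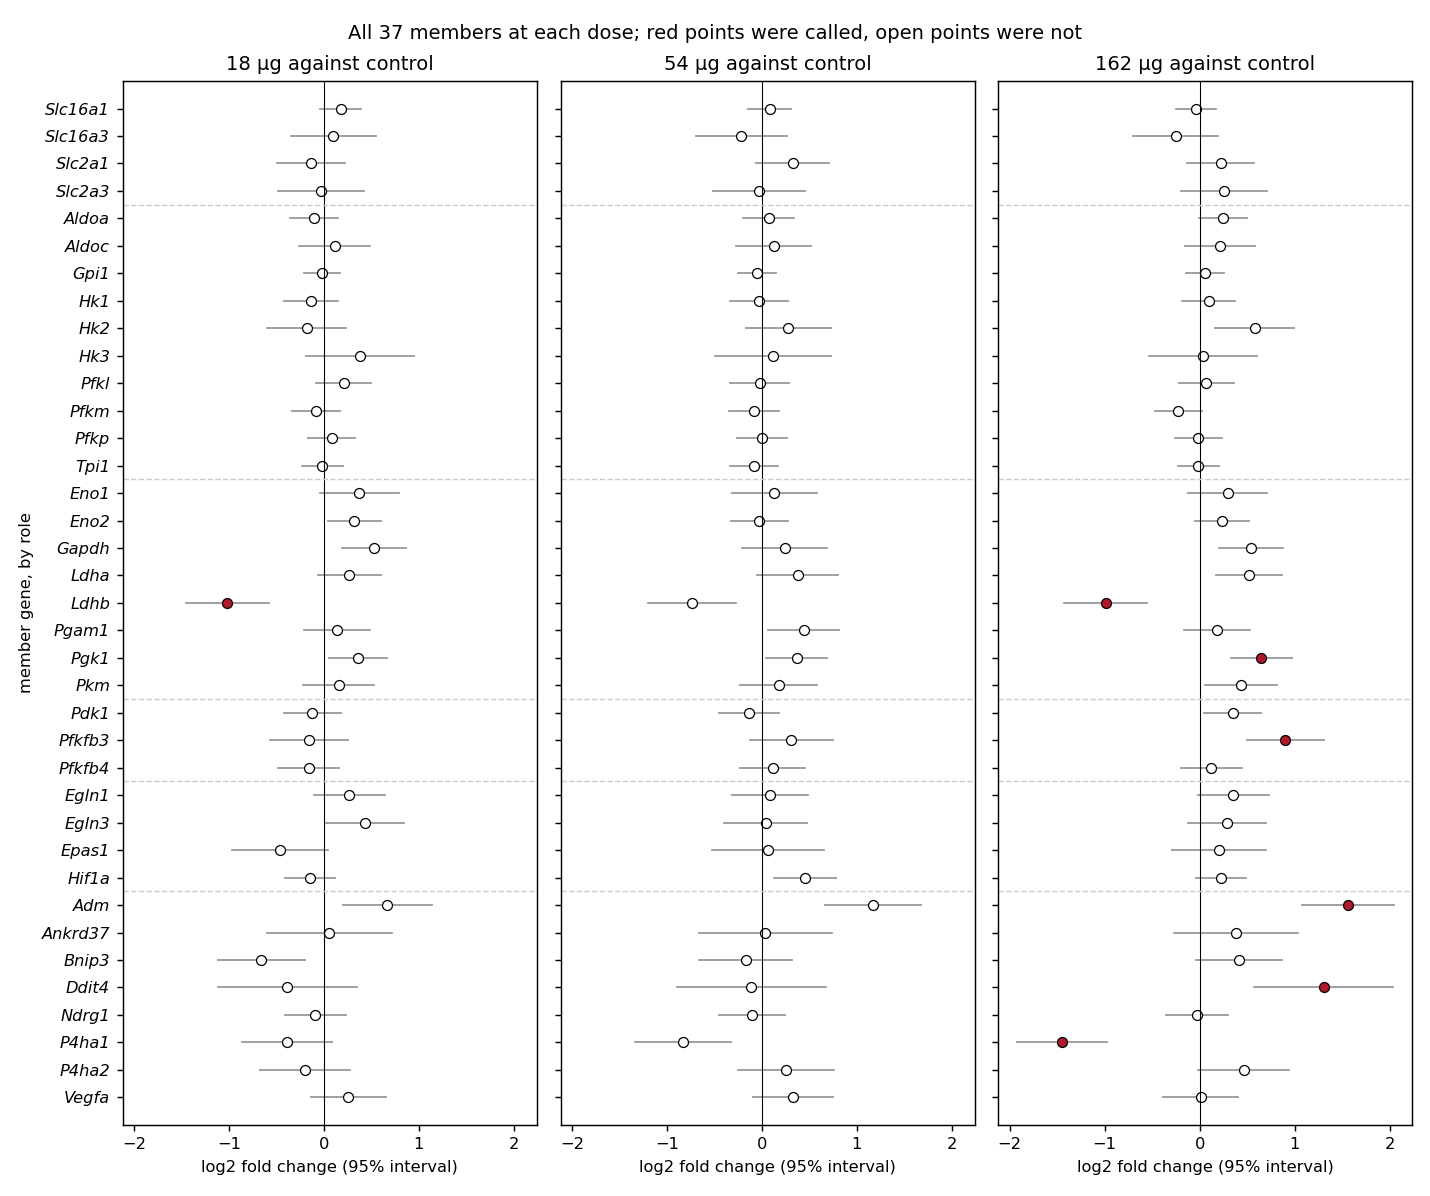
Log2 fold change against control (x axis, with 95% intervals from limma) of each of the 37 genes (y axis, grouped by role) at 18, 54 and 162 µg. Red points passed the rule, which was 1 gene at 18 µg, 0 at 54 µg and 6 at 162 µg, and 29 of the 37 points lie above 0 at 162 µg (14 of 37 with median centring in place of loess).

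As a set, the 37 genes had a median log2 fold change of -0.02 at 18 µg, 0.07 at 54 µg and 0.23 at 162 µg, whereas the median over all expressed named genes was -0.02, -0.01 and -0.01. The number above 0 was 18 of 37 at 18 µg, beside 46.4% of all genes, 22 of 37 at 54 µg, beside 47.4%, and 29 of 37 at 162 µg (78.4%), beside 48.8%. These values depended on the scaling. With each array centred on its median, the members' median at 18 µg was -0.33 with 5 of 37 above 0, while the median over all expressed probes was -0.14, and without normalisation they were -0.49, 1 of 37 and -0.30. With the same centring the members' median at 162 µg was -0.07 with 14 of 37 above 0, while the median over all expressed probes was -0.11. All measured mice lay above all controls for 2 members at 18 µg, Eno2 and Gapdh, beside 1.42% of all genes. The same was seen for 2 at 54 µg, Adm and Hif1a, beside 1.51%, and for 3 at 162 µg, Adm, Pgk1 and Gapdh, beside 3.72%. All mice lay below all controls for 2 members at 18 µg, Ldhb and Bnip3, beside 1.99% of all genes. This held for 1 at 54 µg, Ldhb, beside 1.8%, and for 2 at 162 µg, Ldhb and P4ha1, beside 4.49%.

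The array measures whole lung RNA, so that fewer cells of a type and less RNA per cell cannot be told apart. Marker genes of several cell types differed between the groups, not always in step with the dose. Mean log2 ratios over 11 neutrophil markers were 1.66 to 3.89 in controls and 2.26 to 4.47 at 162 µg, where 2 of 11 passed the rule, both higher, beside 3.32% of all genes. Over 12 markers of recruited monocytes and macrophages the range was -0.32 to 0.56 in controls and 0.26 to 0.98 at 162 µg, with 3 of 12 called higher. The mean over 9 markers of ciliated cells was 2.86 to 3.20 in controls, 1.57 to 3.19 at 18 µg and 1.36 to 2.87 at 162 µg, and 5 of 9 were called lower at 162 µg, beside 3.52% of all genes. Over 9 fibroblast markers it was 1.43 to 1.73 in controls and 1.03 to 1.27 in 5 of 6 mice at 162 µg, the sixth lying among the controls (1 of 9 called, lower). The median mouse was at 1.46 in controls and at 1.19, 1.20 and 1.20 at 18, 54 and 162 µg. Over 10 markers of B and T cells the median mouse was at 0.69 in controls and 0.29 at 162 µg (3 of 10 called lower). Over 5 club cell markers the median log2 fold change was -1.11, -0.62 and -0.41 at 18, 54 and 162 µg. Control mouse 2 stood apart, with a neutrophil mean of 3.89 against 1.66 to 2.35 in the other control mice and a monocyte mean of 0.56 against -0.32 to -0.24. The tissue label held, as the mean over 10 type II alveolar cell markers was 4.31 or more in every mouse, while 8 cardiac muscle markers ranged from 0.35 to 5.39 among controls alone. The share of probes above background ran from 52.1% to 83.5% of the probes on an array and was lowest in a 162 µg mouse. The part of these marker and array differences in the results below was not tested.

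The promoter windows of the 6 called genes, with Pfkfb3 at each of its starts in the promoter table, are shown because these are the members that passed against control. The hypoxia-inducible factors bind short sites with the core ACGTG or GCGTG. Each window is the 250 bases before an annotated start (RefSeq, GRCm38.p6), written 5′ to 3′ on the gene's strand. The P4ha1 window and the first Pfkfb3 window overlap the full annotated extent of their gene, and the second Pfkfb3 window lies inside it. Capitals mark a core on either strand, so that CACGT and CACGC are the same cores read from the other strand.
Adm, chr7:110627407-110627656, plus strand: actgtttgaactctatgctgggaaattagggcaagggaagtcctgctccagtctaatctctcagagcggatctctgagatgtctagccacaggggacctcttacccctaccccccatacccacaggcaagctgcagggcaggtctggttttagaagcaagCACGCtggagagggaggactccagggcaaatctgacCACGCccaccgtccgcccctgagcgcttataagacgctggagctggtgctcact
Ddit4, chr10:59951771-59952020, minus strand: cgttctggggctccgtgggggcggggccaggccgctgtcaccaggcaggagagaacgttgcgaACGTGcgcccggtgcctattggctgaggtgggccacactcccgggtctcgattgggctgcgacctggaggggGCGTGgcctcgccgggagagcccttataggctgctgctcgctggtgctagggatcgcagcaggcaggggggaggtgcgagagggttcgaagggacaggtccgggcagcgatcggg
Pfkfb3, chr2:11553930-11554179, minus strand: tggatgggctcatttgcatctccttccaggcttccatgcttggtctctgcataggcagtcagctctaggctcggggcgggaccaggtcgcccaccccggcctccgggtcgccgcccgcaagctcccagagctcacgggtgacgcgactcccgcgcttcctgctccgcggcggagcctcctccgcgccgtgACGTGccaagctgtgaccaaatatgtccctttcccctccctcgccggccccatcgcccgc
Pfkfb3, chr2:11502091-11502340, minus strand: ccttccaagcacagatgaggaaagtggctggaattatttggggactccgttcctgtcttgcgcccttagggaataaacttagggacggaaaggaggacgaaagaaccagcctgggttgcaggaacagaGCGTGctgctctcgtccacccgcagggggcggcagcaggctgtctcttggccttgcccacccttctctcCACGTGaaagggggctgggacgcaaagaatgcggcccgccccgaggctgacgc
Pgk1, chrX:106186850-106187099, plus strand: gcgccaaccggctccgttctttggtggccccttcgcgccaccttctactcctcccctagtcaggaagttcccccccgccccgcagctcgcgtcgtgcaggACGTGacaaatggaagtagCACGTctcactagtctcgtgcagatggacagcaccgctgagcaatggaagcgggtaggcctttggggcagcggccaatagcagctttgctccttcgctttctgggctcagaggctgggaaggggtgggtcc
Ldhb, chr6:142507958-142508207, minus strand: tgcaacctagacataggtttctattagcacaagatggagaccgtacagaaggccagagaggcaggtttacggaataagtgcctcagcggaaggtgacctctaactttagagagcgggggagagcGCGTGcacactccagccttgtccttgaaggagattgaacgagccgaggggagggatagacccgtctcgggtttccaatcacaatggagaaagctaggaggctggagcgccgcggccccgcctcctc
P4ha1, chr10:59323046-59323295, plus strand: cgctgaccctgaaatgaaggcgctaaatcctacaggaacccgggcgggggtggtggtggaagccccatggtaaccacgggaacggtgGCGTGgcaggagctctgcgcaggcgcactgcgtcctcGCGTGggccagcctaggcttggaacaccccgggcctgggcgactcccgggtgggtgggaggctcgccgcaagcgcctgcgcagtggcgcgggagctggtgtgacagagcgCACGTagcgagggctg
ACGTG occurred in the windows of Ddit4, Pfkfb3, Pgk1 and P4ha1, and GCGTG in those of Adm, Ddit4, Pfkfb3, Ldhb and P4ha1, so that genes that rose and genes that fell both held a core. Of the 37 genes, 34 had a window, and 31 of these (91.2%) held at least 1 core, beside 41.5% of the 27025 genes in the promoter table. ACGTG was found for 61.8% of the 34 genes, beside 18.5% of all genes, and GCGTG for 67.6%, beside 30.9%. The E-box CACGTG, which contains ACGTG on both strands, was found for 17.6%, beside 6.86%. The genes without a core were Eno2, Gpi1 and Tpi1, and none of the 3 was called. Genes with several starts had several windows, base composition was not matched, and a match describes the letters alone.

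Among the hypoxia response genes, Adm showed the lowest adjusted p of the 37 members at 162 µg. The log2 ratios of Adm, which encodes adrenomedullin, were -2.81, -2.36, -2.76, -1.95 and -2.22 in the control mice and had a lowest, median and highest value of -2.25, -1.66 and -0.94 at 18 µg. They were -1.50, -1.28, -0.73, -1.42 and -1.47 at 54 µg and -0.37, -0.75, -0.83, -1.23 and -0.70 in the 5 mice measured at 162 µg, the value of the sixth being missing as an outlier spot. All mice at 54 and 162 µg lay above all controls, as did 4 of 6 at 18 µg. Compared with control, the log2 fold change was 0.67 ± 0.22 (SE; adjusted p = 0.146) at 18 µg and 1.17 ± 0.24 (adjusted p = 0.0676) at 54 µg. At 162 µg it was 1.56 ± 0.23 (adjusted p = 9.19e-04), a 2.95-fold rise. Between mice on the same slide Adm was higher than the control in 4 of 4 pairs at 162 µg, by 0.98 to 2.01, and in 3 of 3 at 54 µg, by 0.80 to 1.47. With median centring the difference at 162 µg was 1.17 and no longer passed (adjusted p = 0.0673).

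Ddit4, which encodes the stress protein also known as REDD1, rose at 162 µg and at no lower dose. Its log2 ratios were -2.02, 0.24, -2.04, -1.61 and -2.26 in controls, -2.05, -1.88 and -1.74 (lowest, median and highest) at 18 µg, and -2.49, -1.58, -1.22, -1.48 and -1.83 at 54 µg. At 162 µg they spanned -1.33 to 0.69 with a median of -0.04. Control mouse 2 stood far above the next control and was higher than 4 of the 6 mice at 162 µg, so that the groups overlapped through this animal. Against control, the log2 fold change was -0.39 ± 0.35 (adjusted p = 0.672), -0.11 ± 0.37 (adjusted p = 0.982) and 1.31 ± 0.35 (adjusted p = 0.0338, 2.47-fold) at 18, 54 and 162 µg. Without control mouse 2 the rise at 162 µg was 1.74 ± 0.30 (adjusted p = 0.00352). This mouse also had the high neutrophil and monocyte marker means given above. The call was lost on leaving out any other control mouse, mouse 1 at 18 µg, or mouse 2, 3 or 6 at 162 µg (1.04 to 1.31 in these 8 fits), and under median centring (0.98, adjusted p = 0.149).

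P4ha1, whose product hydroxylates proline in collagen and uses oxygen to do so, fell at 162 µg. Controls gave log2 ratios of -1.13, -0.86, -0.90, -0.69 and -0.66, and the mice at 18 µg -1.58, -1.10 and -0.92 as lowest, median and highest. The ratios at 54 µg were -0.53, -2.03, -2.01, -1.85 and -1.83, and those at 162 µg had a lowest, median and highest value of -2.75, -2.33 and -1.91. At 54 µg 4 of 5 mice were below all controls and the remaining mouse was above them, while at 162 µg all 6 were below. The log2 fold change was -0.39 ± 0.23 (adjusted p = 0.45), -0.83 ± 0.24 (adjusted p = 0.227) and -1.45 ± 0.23 (adjusted p = 0.00126, 2.72-fold lower) at the 3 doses in order. On shared slides it was lower in 4 of 4 pairs at 162 µg, by -1.86 to -1.53. Without mouse 1 at 54 µg the fall at that dose passed (-1.19). The fibroblast marker mean, given above, was likewise under the control range at 162 µg in 5 of 6 mice. Its median over mice was as low at the lower doses (1.19 at 18 µg and 1.20 at 54 µg, beside 1.20 at 162 µg and 1.46 in controls). The part of the fibroblast markers in the P4ha1 result was not tested. Another probe of P4ha1 read -0.63 at 162 µg and missed the threshold (adjusted p = 0.0527).

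Vegfa, the main growth factor for blood vessels, gave no call at any dose. Its log2 ratios were 1.94, 1.74, 1.82, 1.53 and 1.81 in controls, 1.48, 1.98 and 2.32 (lowest, median, highest) at 18 µg, 1.98, 2.59, 1.71, 2.33 and 1.45 at 54 µg and 1.15, 1.81 and 2.04 at 162 µg. The 4 groups overlapped throughout. At 162 µg the log2 fold change was 0.01 ± 0.19 (adjusted p = 0.991) with a 95% interval of -0.38 to 0.40, and its sign turned under 7 of 15 other settings. Several of the 15, such as those on the filter and the minimum fold, cannot alter this log2 fold change. At 18 and 54 µg it was 0.26 ± 0.19 (adjusted p = 0.576) and 0.32 ± 0.20 (adjusted p = 0.739).

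Bnip3, a mitochondrial protein that starts mitophagy and a known target of the hypoxia-inducible factors, was chosen after its values were seen. It read -2.14, -2.08, -2.22, -2.10 and -2.10 in controls, a narrow range, and -2.93, -2.82 and -2.57 (lowest, median and highest) at 18 µg. At 54 µg the ratios were -2.81, -2.47, -1.74, -2.36 and -2.26, and at 162 µg they ran from -2.28 to -0.91 with a median of -1.88. With this brightest probe, all 6 mice at 18 µg were below all controls, and all 6 at 162 µg were above all 6 at 18 µg. Against control at 18 µg, the other probes of Bnip3 gave smaller falls in limma, of -0.23 (adjusted p = 0.672) and -0.24 (adjusted p = 0.504). Against control the log2 fold change was -0.66 ± 0.22 (adjusted p = 0.137) at 18 µg, -0.17 ± 0.23 (adjusted p = 0.926) at 54 µg and 0.42 ± 0.22 (adjusted p = 0.338) at 162 µg, none of which passed.

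Over the 8 hypoxia response genes, which also include Ankrd37, Ndrg1 and the second collagen hydroxylase subunit P4ha2, the median log2 fold change was -0.14, -0.03 and 0.40 at 18, 54 and 162 µg, with 3, 4 and 6 of 8 above 0. The range widened from -0.66 to 0.67 at 18 µg to -1.45 to 1.56 at 162 µg, with 2 genes called higher and 1 lower. P4ha2 differed from control by 0.46 at 162 µg, which did not pass (adjusted p = 0.3), against the fall of P4ha1.

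**Figure D2:**
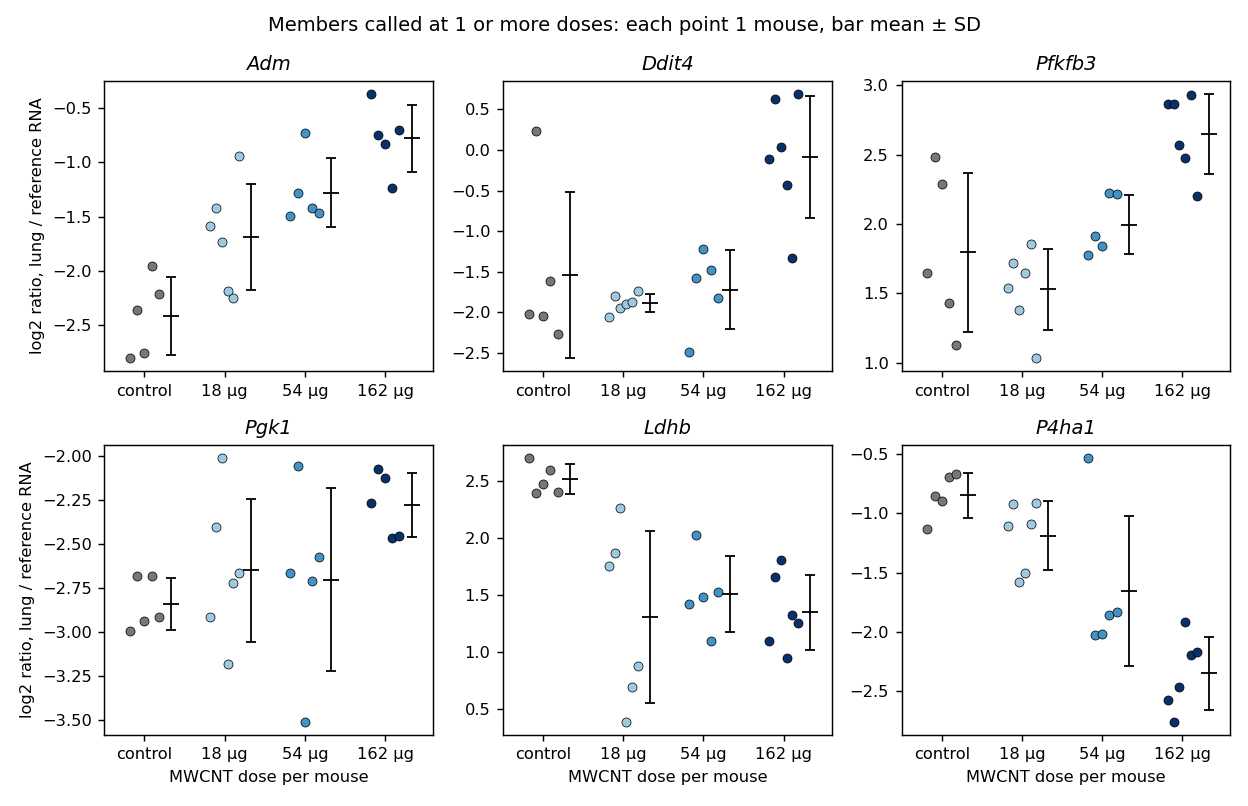
Log2 ratio of lung to reference RNA (y axis) in each mouse by dose (x axis) for the 6 genes called at 1 or more doses, with the mean and SD of each group as bars. For Adm, the 5 mice measured at 162 µg sit between -1.23 and -0.37, above all controls, and for Ddit4 control mouse 2 lies at 0.24 among the 162 µg mice.

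The hypoxia-inducible factors and their prolyl hydroxylases gave 0 calls of 4 at each dose in limma, with 1, 1 and 0 of 4 at an unadjusted p under 0.05 at 18, 54 and 162 µg. Hif1a, the oxygen-regulated subunit found in most cells, had log2 ratios of -1.08, -1.41, -1.68, -1.63 and -1.02 in controls and -2.06, -1.26 and -1.14 (lowest, median, highest) at 18 µg. In the 3 mice measured at 54 µg the ratios were -0.78, -0.84 and -0.97, and at 162 µg they ranged from -1.72 to -0.68 with a median of -1.16. The 3 mice at 54 µg lay above all controls and the other doses overlapped them. Against control, the log2 fold change was -0.15 ± 0.12 (adjusted p = 0.64), 0.45 ± 0.15 (adjusted p = 0.351) and 0.23 ± 0.12 (adjusted p = 0.366), the last of which turned to -0.13 with median centring. Hif1a is regulated largely by protein stability, which an RNA measurement does not show.

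Epas1, which encodes the related factor abundant in lung endothelium, read 8.43, 8.84, 8.94, 8.23 and 8.21 in controls and 6.93, 8.04 and 8.41 (lowest, median, highest) at 18 µg. At 54 µg 4 mice gave 7.58, 8.78, 8.69 and 8.07, and at 162 µg the range was 8.31 to 9.25 with a median of 8.67. At 18 µg 5 of 6 mice were below all controls, and the other doses overlapped them. Compared with control, the log2 fold change was -0.46 ± 0.24 (adjusted p = 0.383), 0.06 ± 0.28 (adjusted p = 0.986) and 0.20 ± 0.24 (adjusted p = 0.76), and at 162 µg it turned to -0.07 with median centring. Of its 3 probes, the brightest and the third read -0.46 and -0.18 at 18 µg, while the second was 0.60 above control (adjusted p = 0.0862), so that the direction of Epas1 at that dose rests on the choice of probe. The hydroxylases Egln1 and Egln3, which mark the factors for degradation, differed by 0.36 and 0.29 at 162 µg without passing. The median of the 4 genes was 0.06, 0.07 and 0.26 at the 3 doses.

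Of the 4 carriers of glucose and lactate, 0 passed at any dose in limma, and 0 had an unadjusted p under 0.05. Slc2a1, the basal glucose carrier GLUT1, read -3.21, -3.49, -3.36, -3.13 and -3.39 in controls, -3.58, -3.42 and -2.70 (lowest, median, highest) at 18 µg, -2.78, -3.33, -2.80, -3.33 and -1.97 at 54 µg and -3.24, -3.02 and -2.55 at 162 µg. The groups overlapped at each dose, although 3 of 5 mice at 54 µg were above all controls. The log2 fold change was -0.14 ± 0.17 (adjusted p = 0.771), 0.33 ± 0.18 (adjusted p = 0.684) and 0.22 ± 0.17 (adjusted p = 0.581), and it turned to -0.08 at 162 µg with median centring. Together with the neuronal-type glucose carrier Slc2a3 and the lactate carriers Slc16a1 and Slc16a3, the list ranged from -0.25 to 0.26 at 162 µg with a median of 0.09 and 2 of 4 above 0.

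The hexokinases and enzymes of upper glycolysis, which phosphorylate glucose and split it into triose phosphates, also gave 0 calls of 10 against control in limma, with 0, 0 and 1 of 10 at an unadjusted p under 0.05. Hk2, the inducible hexokinase, had log2 ratios of -1.28, -1.41, -1.50, -1.73 and -1.92 in controls and -2.05, -1.82 and -1.48 (lowest, median, highest) at 18 µg. At 54 µg they were -1.05, -1.60, -1.73, -1.41 and -0.90, and at 162 µg they ran from -1.81 to -0.62 with a median of -1.03. At 162 µg 4 of 6 mice were above all controls. Compared with control, the log2 fold change was -0.18 ± 0.20 (adjusted p = 0.736), 0.28 ± 0.21 (adjusted p = 0.811) and 0.58 ± 0.20 (adjusted p = 0.102). The difference at 162 µg passed with the Cy5 channel alone (0.80, adjusted p = 0.0325) and with only the groups compared in the fit (0.74, adjusted p = 0.0397). It did not pass under the other 13 of 15 settings, and over the 15 it ran from 0.21 to 0.80. On shared slides Hk2 was above the control in 4 of 4 pairs at 162 µg and in 0 of 4 at 18 µg. The other 9 genes, namely Hk1, Hk3, Gpi1, the phosphofructokinases Pfkl, Pfkm and Pfkp, the aldolases Aldoa and Aldoc, and Tpi1, stayed close to control. The median of the 10 was -0.02, -0.01 and 0.06 at the 3 doses, with a range of -0.23 (Pfkm) to 0.58 (Hk2) at 162 µg.

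**Figure D3:**
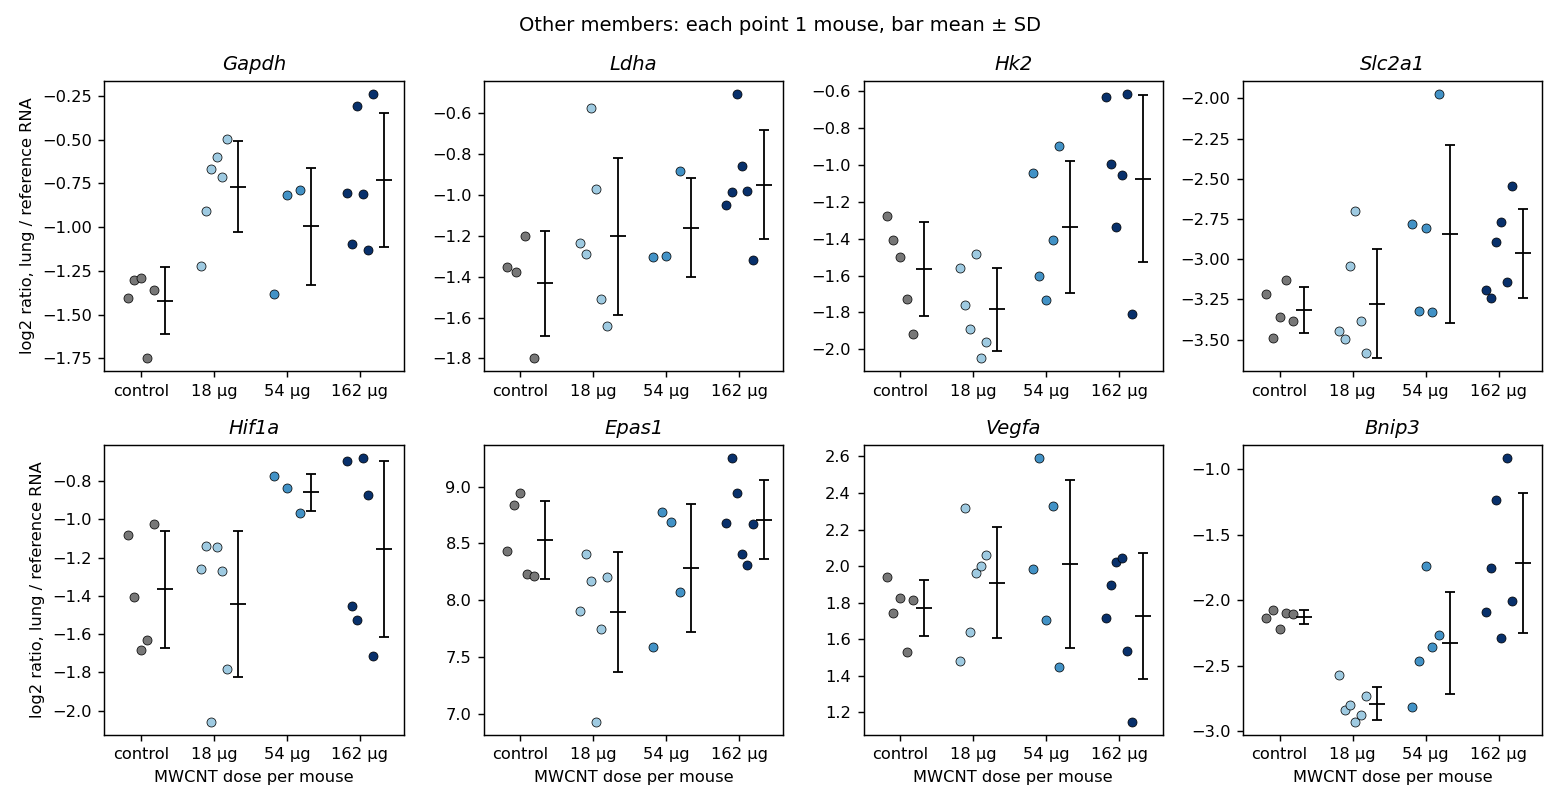
Log2 ratio of lung to reference RNA (y axis) in each mouse by dose (x axis) for 7 genes described whatever their result and for Bnip3, with the mean and SD of each group as bars. The brightest probe of each gene is drawn. None of these 8 probes passed against control, and the 6 Bnip3 values at 18 µg, -2.93 to -2.57, lie below all controls.

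The regulators of glycolytic flux held the enzyme of glycolysis with the highest rise, Pfkfb3. Its product makes fructose 2,6-bisphosphate, the main activator of phosphofructokinase, and the gene read 1.65, 2.48, 2.29, 1.43 and 1.13 in controls. Its ratios were 1.03, 1.59 and 1.86 (lowest, median, highest) at 18 µg, 1.78, 1.91, 1.84, 2.22 and 2.22 at 54 µg and 2.20, 2.72 and 2.93 at 162 µg. At 162 µg 4 of 6 mice were above all controls, whose own spread of 1.13 to 2.48 was wide. Against control, the log2 fold change was -0.16 ± 0.19 (adjusted p = 0.774), 0.31 ± 0.21 (adjusted p = 0.772) and 0.90 ± 0.19 (adjusted p = 0.0100, 1.87-fold). On shared slides Pfkfb3 was higher in 4 of 4 pairs at 162 µg, by 0.38 to 1.80, and the other probe of this gene rose by 0.87 (adjusted p = 0.00873). With median centring the change was 0.56 and did not pass (adjusted p = 0.535). Pdk1, which inhibits pyruvate dehydrogenase, differed by 0.35 at 162 µg without passing (adjusted p = 0.194). The third member was Pfkfb4, an isoenzyme of Pfkfb3, and the 3 genes were all below control at 18 µg (-0.16 to -0.12) and all above it at 162 µg (0.12 to 0.90), the latter 3 differences being on the loess scale.

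Among the 8 enzymes of lower glycolysis, Pgk1 was called higher at 162 µg and Ldhb was called lower, and 7 of 8 lay above 0 on the loess scale. Pgk1, phosphoglycerate kinase, which makes ATP from bisphosphoglycerate, read -2.99, -2.68, -2.94, -2.68 and -2.92 in controls and -3.18, -2.69 and -2.01 (lowest, median, highest) at 18 µg. The values were -2.66, -2.05, -3.51, -2.71 and -2.57 at 54 µg and -2.27, -2.07, -2.13, -2.46 and -2.45 in the 5 mice measured at 162 µg. All 5 at 162 µg were above all controls, and the lower doses overlapped them. The log2 fold change was 0.36 ± 0.14 (adjusted p = 0.228) at 18 µg, which turned to -0.08 with median centring, then 0.37 ± 0.15 (adjusted p = 0.48) at 54 µg and 0.65 ± 0.15 (adjusted p = 0.0187, 1.57-fold) at 162 µg. The rise lay close to the 1.5-fold threshold and was not called under 9 of 15 other settings, in all of which it stayed above 0. Several of the 15, such as quantile normalisation between arrays or a dropped filter or minimum fold, could not remove the call. The rise was also not called without control mouse 3 (0.54), control mouse 4 (0.61) or mouse 4 at 162 µg (0.53).

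Ldhb, whose subunit favours the conversion of lactate to pyruvate, lay below control in every treated mouse and passed at 18 and 162 µg. The log2 ratios were 2.71, 2.40, 2.48, 2.60 and 2.41 in controls, 0.39, 1.32 and 2.27 (lowest, median, highest) at 18 µg, 1.42, 2.03, 1.48, 1.09 and 1.52 at 54 µg and 0.94, 1.29 and 1.81 at 162 µg. Each of the 17 treated mice lay below each of the 5 controls. Against control, the log2 fold change was -1.02 ± 0.21 (adjusted p = 0.026, 2.02-fold lower) at 18 µg, -0.73 ± 0.22 (adjusted p = 0.251) at 54 µg and -0.99 ± 0.21 (adjusted p = 0.00867, 1.99-fold lower) at 162 µg. All pairs on shared slides went the same way, in 4 of 4, 3 of 3 and 4 of 4 pairs. The call at 18 µg was lost without control mouse 1 (-0.95), control mouse 5 (-0.89) or mouse 5 at 18 µg (-0.91). The ciliated cell markers were also lower, as 0 of 9 had a fold change above 0 at any dose, with medians of -0.83, -0.52 and -0.87, and the part of this in the Ldhb result was not tested.

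Gapdh, the enzyme before Pgk1 and a widely used reference gene for RT-qPCR, had log2 ratios of -1.40, -1.30, -1.29, -1.75 and -1.36 in controls and -1.22, -0.69 and -0.50 (lowest, median, highest) at 18 µg. The 3 mice measured at 54 µg gave -1.38, -0.82 and -0.79, and those at 162 µg -1.13, -0.81 and -0.24 as lowest, median and highest. All 6 mice at 18 µg and all 6 at 162 µg were above all controls. Compared with control, the log2 fold change was 0.52 ± 0.16 (adjusted p = 0.113), 0.24 ± 0.21 (adjusted p = 0.844) and 0.54 ± 0.16 (adjusted p = 0.0556), none of which passed with the brightest probe. The difference at 162 µg did pass with slide as a random block (0.63, adjusted p = 0.0180), with no slide term (0.69, adjusted p = 0.0242) and with the replicate number in place of slide (0.61, adjusted p = 0.0184). All 7 Gapdh probes were above 0 at each dose, by 0.29 to 0.93 at 162 µg, where 2 of 7 passed the rule (0.82, adjusted p = 0.0158, and 0.93, adjusted p = 0.00421). On shared slides Gapdh was higher than the control in 4 of 4 pairs at 18 µg and 4 of 4 at 162 µg, while without normalisation the difference at 18 µg was -0.0038.

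Ldha, the subunit that favours lactate production, did not pass with its brightest probe. It read -1.35, -1.38, -1.20 and -1.80 in 4 controls, -1.64, -1.26 and -0.57 (lowest, median, highest) at 18 µg, -1.30, -1.30 and -0.88 in 3 mice at 54 µg and -1.32, -0.98 and -0.51 at 162 µg. At 162 µg 5 of 6 mice were above all measured controls. The log2 fold change was 0.27 ± 0.15 (adjusted p = 0.45), which turned to -0.16 with median centring, then 0.38 ± 0.20 (adjusted p = 0.665) and 0.52 ± 0.16 (adjusted p = 0.0794). Its other probes read 0.58 (adjusted p = 0.0115, under 1.5-fold) and 0.68 (adjusted p = 0.0413, called) at 162 µg. Among the rest, the enolases Eno1 and Eno2, Pgam1 and the pyruvate kinase Pkm gave 0 calls, with Pkm at 0.44 (adjusted p = 0.192) at 162 µg and all 6 Eno2 values above the controls at 18 µg. The list of 8 had a median of 0.30, 0.21 and 0.37 at the 3 doses, with 7, 6 and 7 of 8 above 0.

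**Figure D4:**
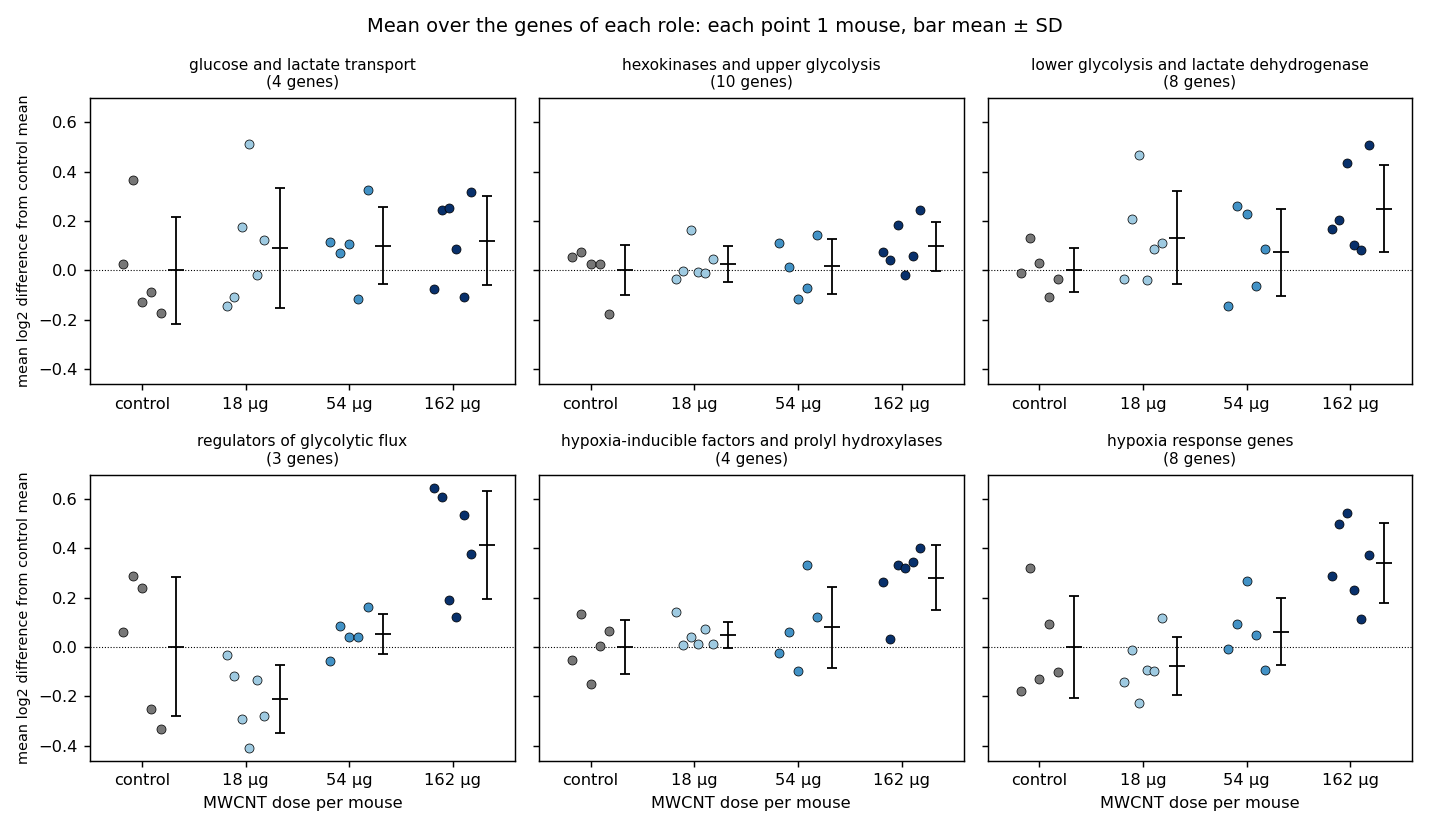
Mean over the genes of each role of the log2 difference from the control mean (y axis) in each mouse by dose (x axis), with the mean and SD of each group as bars. At 162 µg, on the loess scale, all 6 mice lie above 0 for the flux regulators, the hypoxia-inducible factors with their hydroxylases, the hypoxia response genes and lower glycolysis, and in each of these 4 roles they overlap the controls.

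The highest and lowest doses were also compared directly, which leaves the control mice out of the contrast. Between 162 and 18 µg, 6 of 37 members passed (16.2%), beside 4.98% of all genes. Of these, 5 were higher at 162 µg, namely Adm, Bnip3, Ddit4, Hk2 and Pfkfb3, beside 3.33% of all genes, and 1, P4ha1, was lower, beside 1.65%. Ddit4 differed by 1.69 ± 0.33 (adjusted p = 0.0066, 3.23-fold) and Bnip3 by 1.08 ± 0.20 (adjusted p = 0.00562, 2.11-fold). Pfkfb3 differed by 1.06 (adjusted p = 0.00298) and P4ha1 by -1.06 (adjusted p = 0.00813). For these 4 genes, which had already passed the rule, all 6 mice at 162 µg lay outside the range of the 6 mice at 18 µg. The share of all genes so separated between these doses is not given here, so that the separation is descriptive only. Adm differed by 0.89 (adjusted p = 0.0321) and Hk2 by 0.76 (adjusted p = 0.0261, 1.70-fold), and these 2 calls were lost in 8 and 7 of the 22 fits that left out 1 mouse each. With median centring the call for Ddit4 held, and those for Bnip3 (1.14, adjusted p = 0.114), Pfkfb3 (1.06, adjusted p = 0.171), Adm (0.87, adjusted p = 0.367), P4ha1 (-0.87, adjusted p = 0.397) and Hk2 (0.79, adjusted p = 0.675) were lost. The other Bnip3 probes read 0.68 (adjusted p = 0.056) and 0.42 (adjusted p = 0.139).

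Ldhb and Pgk1, which passed against control, did not pass between these doses. Ldhb differed by 0.02 (adjusted p = 0.973) and Pgk1 by 0.29 (adjusted p = 0.343) between 162 and 18 µg. The brightest Epas1 probe was 0.67 higher at 162 µg (adjusted p = 0.115), as was the third by 0.35 (adjusted p = 0.327), whereas the second was 0.60 lower and passed (adjusted p = 0.0414). Limma called 0 of 37 members between 54 and 18 µg, beside 0.0304% of all genes, and 0 of 37 between 162 and 54 µg, beside 0% of all genes, with 7 and 5 at an unadjusted p under 0.05.

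Related genes of the same pathways were examined as lists that were also chosen with earlier results of these data known. Among 43 expressed genes of other hypoxia responses, 1, 1 and 7 were called higher at 18, 54 and 162 µg, beside the 0.633%, 0.219% and 3.32% of all genes given above, and 0 were called lower. Angptl4, an inhibitor of lipoprotein lipase, was 2.67 ± 0.43 higher at 162 µg (adjusted p = 0.00169, 6.34-fold), Lox, which crosslinks collagen, 1.80 (adjusted p = 7.25e-04) and Pgf, a growth factor of the Vegfa family, 1.70 (adjusted p = 2.91e-06). All 6 mice were above all controls for each of these 3 genes. Pgf was also the gene called at 54 µg (0.88, adjusted p = 0.0141), and the gene called at 18 µg, named after its value was seen, was the Vegfa receptor Kdr (0.65, adjusted p = 0.0479). The list's median was 0.18 at 162 µg, beside -0.01 over all genes.

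In the oxygen sensing list 1 of 14 expressed genes was called at 162 µg (7.14%, beside 6.84% of all genes). This was Hif3a, a hypoxia-inducible factor subunit with repressive forms, which was 2.30 ± 0.39 higher (adjusted p = 0.00234) in 6 of 6 mice. Its list had a median of -0.02. Among 31 other genes of glycolysis and transport, 1 was called lower at 18 µg (3.23%, beside 2.06% of all genes). At 162 µg 1 was called higher and 1 lower (6.45%, beside 6.84%). The enolase Eno4 was 0.90 lower at 18 µg (adjusted p = 0.0432) and 0.92 lower at 162 µg (adjusted p = 0.0141). The hexokinase-like Hkdc1 was 0.78 higher at 162 µg (adjusted p = 0.0409). Of 15 genes of glycogen metabolism, 1 was called higher and 2 lower at 162 µg (20%, beside 6.84% of all genes). These were the phosphorylase kinase subunits Phka2 (0.95, adjusted p = 0.0184) and Phkb (-0.69, adjusted p = 0.00259) and Ppp1r3c, a glycogen-targeting subunit of protein phosphatase 1 (-0.98, adjusted p = 0.0303). The pyruvate carboxylase Pcx (0.90, adjusted p = 0.0207) was called at 162 µg among 11 genes of mitochondrial pyruvate metabolism (9.09%, beside 6.84% of all genes). The 8 genes of the pentose phosphate pathway and the 17 of the tricarboxylic acid cycle gave 0 calls at each dose in limma. Of all genes, 2.06%, 0.353% and 6.84% were called at 18, 54 and 162 µg. At 162 µg these lists had medians of 0.21 and 0.12, with 4 and 1 unadjusted p under 0.05.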

How the data were processed

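The authors hybridised lung RNA (Cy5) with universal mouse reference RNA (Cy3) on 22 Agilent arrays over 7 slides. Per the file headers, spot intensity was extracted with Feature Extraction 10.7.3.1. The authors also deposited a table of normalised log2 ratios, used as an alternative. Here median signals were normalised by loess (span 0.3) without background subtraction, outlier spots were left out (12 of 814 member values) and spots of a probe were summarised by their median. Probes were named through RefSeq accessions (26413 of 55681). A probe counted as expressed (39549 probes) where, in any group, 80% or more of its arrays had a Cy5 signal above a limit set from 308 negative control spots, their trimmed mean (5%) plus 3 trimmed SD.

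Dose and slide were fitted over all arrays with limma 3.58.1 (R 4.3.3, 12 residual degrees of freedom), in place of the Fs test of the study's methods. P-values were adjusted by the Benjamini-Hochberg method over all 55681 probes, and a call asked for 0.05 and 1.5-fold. The comparison was tested on simulated data with independent errors and no slide effect. In the real data arrays of a slide correlated at 0.21, which that test does not cover. Errors are SE of the fold change, intervals are 95%, and n counts mice. Full values are given for members called at any dose and for Gapdh, Hif1a, Epas1, Vegfa, Slc2a1, Hk2 and Ldha, and pathway genes are named where called, up to 4 per list, except 1 that is not reported here. The members and lists were chosen with earlier results of these data known. Alternatives covered normalisation, background (normexp with offset 50, on median signals), slide, filter, probe choice and each mouse left out. Figures were drawn with matplotlib 3.10.9.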

Additional observations from a re-analysis of the deposited data

Results flagged for a closer look

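Of 53 groups of mice tested among the members given by mouse, 4 had a mouse far from the others (Dixon's criterion), where chance gives about 1 in 20. Adm read -0.73 in mouse 3 at 54 µg, with -1.28 as the nearest value. Ddit4 read 0.24 in control mouse 2, with -1.61 as the nearest. P4ha1 read -0.53 in mouse 1 at 54 µg, with -1.83 as the nearest. Gapdh read -1.75 in control mouse 4, with -1.40 as the nearest.

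For 6 members the change from control at 162 µg differed from that at 18 µg by the limma test of the difference. The log2 difference was 1.69 for Ddit4, 1.08 for Bnip3, 1.06 for Pfkfb3, 0.89 for Adm and 0.76 for Hk2, while for P4ha1 it was -1.06.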

How the results depend on the processing

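The number of called members (1, 0, 6 and 6 at 18, 54 and 162 µg against control and between 162 and 18 µg) changed as follows. With median centring it was 2 at 162 µg (Ldhb and P4ha1) and 1 between 162 and 18 µg (Ddit4). Without normalisation it was 0 at 18 µg, 0 at 162 µg and 0 between 162 and 18 µg. With the deposited log2 table it was 0 at 18 µg and 3 at 162 µg (Adm, Ldhb and P4ha1). At 54 µg it was 1 (Adm) with the Cy5 channel alone, without the slide term, with slide as a random block and with the replicate block. With slide as a random block it was 2 at 18 µg (Gapdh and Ldhb). With only the 2 groups compared it was 0 at 18 µg and 2 at 54 µg (Adm and Ldhb). Counting a member when any of its probes was called, a setting added after seeing the data, gave 8 at 162 µg. Leaving out each mouse in turn gave 0 to 1 at 18 µg, 0 to 1 at 54 µg, 4 (without control mouse 3) to 7 (without mouse 5 at 54 µg) at 162 µg, and 4 (without mouse 2 at 18 µg) to 8 (without mouse 3 at 54 µg) between 162 and 18 µg. Between 54 and 18 µg and between 162 and 54 µg it stayed at 0 to 0. Adm, Pfkfb3, Ldhb and P4ha1 were called at 162 µg in all 22 of these fits.

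Signs turned only for differences that had not passed. With median centring, log2 fold changes at 18 µg were -0.080 for Pgk1, -0.13 for Vegfa and -0.16 for Ldha, and at 162 µg -0.13 for Hif1a, -0.072 for Epas1, -0.25 for Vegfa and -0.076 for Slc2a1. Without normalisation they were -0.24 for Pgk1, -0.0038 for Gapdh, -0.29 for Vegfa and -0.35 for Ldha at 18 µg, 0.072 for Ddit4 at 54 µg, and -0.16 for Hif1a, -0.090 for Epas1, -0.27 for Vegfa and -0.094 for Slc2a1 at 162 µg. With Cy5 alone, Hif1a was 0.11 and Hk2 0.059 at 18 µg. Vegfa at 162 µg was -0.0092 with normexp, -0.032 with the deposited table, -0.043 without the slide term and -0.021 with the random block. Epas1 at 54 µg was -0.0024 with the deposited table, -0.25 without the slide term, -0.14 with the random block, -0.19 with only the groups compared and -0.88 as the mean over its probes. Hk2 at 18 µg was 0.00078 with the deposited table, Slc2a1 at 18 µg 0.040 without the slide term, and Ddit4 at 54 µg 0.26 with only the groups compared. Leaving out 1 mouse took Ddit4 from -0.58 to 0.053 at 18 µg and from -0.40 to 0.21 at 54 µg, Vegfa from -0.12 to 0.11 at 162 µg and Epas1 from -0.19 to 0.41 at 54 µg. The cause of these changes was not tested.

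The labels' replicate numbers were not taken to pair the mice, since nothing in the labels ties them. Deviations of same-numbered mice correlated at -0.17 to 0.62 over 31 pairs (median 0.17), 20 of them over 0.1. Of the 22 mice, 11 correlated best with their own number, for which no chance level was computed. The highest correlations were 0.62 and 0.55 (mice 3 and 6 at 18 and 162 µg) and 0.54 (mouse 2 at 54 and 162 µg). Each of these was between mice on the same slide, so that the correlations cannot tell a pairing by number from a shared slide. With the replicate block in place of slide, Pgk1 lost its call at 162 µg (adjusted p = 0.130) and Gapdh gained it (adjusted p = 0.0184), while Hif1a was 0.013 and Slc2a1 0.030 at 18 µg, Epas1 -0.13 at 54 µg and Vegfa -0.00048 at 162 µg.

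The median over all expressed probes moved by more than 0.1 with median centring (-0.11 at 162 µg) and without normalisation (-0.14 at 162 µg), where the members' medians were -0.07 and -0.08, and with the Cy5 channel alone (0.17 at 18 µg and -0.15 between 162 and 18 µg), where they were 0.0049 and 0.29. Quantile normalisation between arrays leaves log ratios unchanged by construction. The arrays' signal over background, 1.18 to 2.5 times, and the 5 or 6 mice a group limit what could be called.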
